A study of Drosophila melanogaster with 9 samples.

Results

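The small heat shock proteins of Drosophila were followed by their RNA in whole larvae of the third instar with 2, 1 or 0 intact copies of Atg6. The genes were taken by name: Hsp22, Hsp23, Hsp26, Hsp27, Hsp67Ba, Hsp67Bb and Hsp67Bc, which lie together in cytological band 67B, and l(2)efl on another chromosome. These are 8 of the 16414 gene names in the deposited table, and they fall on 7 of its 15809 loci, because Hsp22 and Hsp67Bb share 1 locus and have 1 common value. All 7 loci passed the filter on low values, as did 10887 loci in all.

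Small heat shock proteins carry an alpha-crystallin domain, form large oligomers and bind unfolding proteins without using ATP, holding them for refolding by the ATP-driven chaperones or for degradation. In the fly the genes at 67B are switched on by heat through heat shock factor, and several of them are also expressed without stress at the end of larval life, when the steroid hormone ecdysone rises. Some members differ in where they act, Hsp22 in mitochondria and Hsp27 in the nucleus, for example. Hsp67Bb is grouped with them by its name and place in the cluster, not by an alpha-crystallin domain.

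Wandering larvae of that stage, of the w118 background and raised on standard food at 25 °C, gave 9 libraries of total RNA. There were 3 libraries each of Atg6 wild type, of Atg6-/+ heterozygotes (Atg6D/+) and of Atg6-/- homozygotes (Atg6D/Atg6D), and the w118 background was common to all 9. Loss of Atg6 and other variants on the Atg6D chromosome cannot be told apart. The product of Atg6, the fly Beclin 1, belongs to a lipid kinase complex needed to begin an autophagosome. The labels give neither sex, nor age in hours, nor the number of larvae in a library, nor whether libraries came from separate cultures, so a p-value here reflects only the spread among these libraries, which may be technical. Levels are FPKM (fragments counted per kilobase of transcript and per unit of library size). A change is a log2 fold change computed on FPKM + 1, and SE is its standard error. A change was called at a limma p, adjusted over the 10887 loci, under 0.05.

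Atg6 itself followed the labels: it was at 16.1, 14.3 and 17.0 FPKM in wild types 1 to 3, at 7.58, 7.98 and 8.89 in heterozygotes 1 to 3, and at 0.0270, 0 and 0.0563 in homozygotes 1 to 3. The sum of FPKM over all loci ran from 754677 to 1099060 per library, and relative depth, read from the lowest values, from 0.79 to 1.28 of wild type 1. Absolute depth is unknown. The log2 levels of any 2 libraries had a Pearson r between 0.849 and 0.99 across genes.

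All 7 small heat shock loci were lower in homozygotes than in wild types, and at no locus did the 2 genotypes overlap: each homozygote library was below each wild type library. Among all tested loci 20.5% were separated downwards in this way. Hsp23, Hsp27, Hsp26, Hsp67Ba, Hsp67Bc and l(2)efl fell past the threshold, 6 of 7 lower and 0 higher, where 9.67% of all loci were called lower, 12.3% higher and 22.0% in either direction. The members were chosen with earlier results of these data known, so these shares are given as a description and not as a test. The median log2 fold change of the 7 loci was −1.71, beside 0.01 for all loci tested. Because whole larvae were sequenced, fewer cells of a type and less RNA per cell cannot be told apart in any of these values.

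Summed over the 7 loci, the family was at 3042, 2434 and 3132 FPKM in wild types 1 to 3, at 1610, 1983 and 1874 in heterozygotes 1 to 3, and at 620, 960.2 and 1163 in homozygotes 1 to 3. The means were 2869 ± 379.7, 1822 ± 191.8 and 914.4 ± 274.4 (SD, n = 3 each), and no genotype overlapped another in this sum. Without the member outside the cluster, the sum ran from 717 to 2039 FPKM in wild types. It then ran from 475.3 to 756.4 in heterozygotes and from 160.1 to 499.3 in homozygotes. Heterozygotes thus overlapped both other genotypes, while homozygotes stayed below wild types. The share of all tested loci with all 3 genotypes apart was not computed. As a share of all FPKM the family ran from 0.234 to 0.403% in the wild types and from 0.0578 to 0.123% in homozygotes 1 to 3. Each of the 7 loci had its heterozygote mean between the other genotypes, falling from wild type to heterozygote to homozygote, an order of means that 32.0% of all tested loci had.

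**Figure D1:**
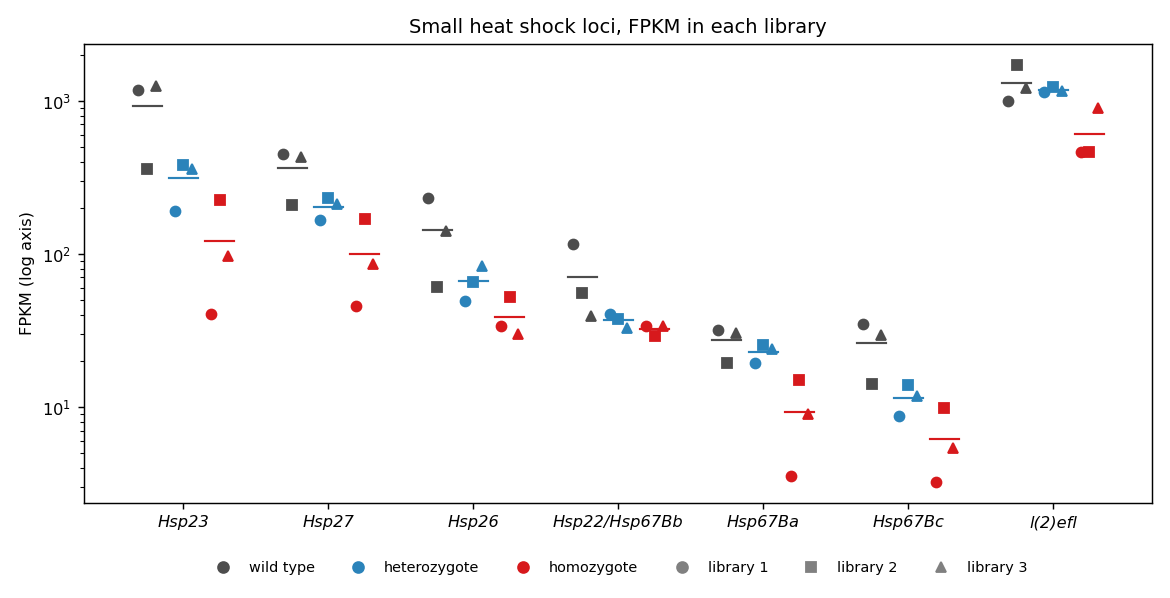
FPKM (log axis) of each small heat shock locus in each of the 9 libraries, with a line at the mean of each genotype; colours give the genotype and symbols the library number. All homozygote points of a locus lie below all its wild type points, from 40.3 to 224.8 against 360.8 to 1256 for Hsp23.

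The chaperones of the cytosol and nucleus at 67B include the most abundant genes of the cluster. Hsp23, a cytosolic small heat shock protein, was at 1176, 360.8 and 1256 FPKM in wild types 1 to 3, at 190.6, 382.9 and 360.2 in heterozygotes 1 to 3, and at 40.3, 224.8 and 96.0 in homozygotes 1 to 3. Wild type 2 stood well below the other wild types and within the range of the heterozygotes, and homozygote 1 was the lowest library. The means were 931.1 ± 495.5, 311.2 ± 105.1 and 120.4 ± 94.6 FPKM (SD, n = 3 each), a ratio of 7.74 between wild type and homozygote. The homozygote change was −3.07 (SE 0.70, 95% interval −4.69 to −1.45, limma adjusted p = 0.0241), the largest of the family. In the wild type Hsp23 ranked 166 among all loci, tested or not, by mean FPKM, and in the homozygote 950. Leaving out wild type 1, wild type 3 or homozygote 3 ended the call (0.0749, 0.0822 and 0.0745).

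Hsp27, which works in the nucleus, followed the same libraries at a lower level. It was at 449.2, 206.9 and 430.9 FPKM in wild types 1 to 3, at 167.0, 231.2 and 211.9 in heterozygotes 1 to 3, and at 45.4, 168.5 and 85.6 in homozygotes 1 to 3. Wild type 2 was again the lowest wild type, below heterozygotes 2 and 3, and homozygote 2 was again the highest homozygote. From a mean of 362.3 ± 134.9 in the wild type, Hsp27 fell to 99.9 ± 62.8 FPKM in the homozygote (n = 3 each), a log2 fold change of −1.96 (SE 0.48, interval −3.08 to −0.85, limma adjusted p = 0.0303). It did not pass when wild type 1, wild type 3, homozygote 3, heterozygote 2 or heterozygote 3 was left out (adjusted p = 0.0875, 0.0927, 0.0896, 0.0541 and 0.0537).

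Hsp26, another cytosolic member, was at 230.2, 60.3 and 140.4 FPKM in wild types 1 to 3, at 49.4, 65.4 and 83.4 in heterozygotes 1 to 3, and at 33.7, 52.0 and 30.0 in homozygotes 1 to 3. Wild type 1 was the highest library, and wild type 2 was the wild type nearest to the homozygotes. The mean fell from 143.6 ± 85.0 to 38.6 ± 11.8 FPKM (n = 3 each), a log2 fold change of −1.71 (SE 0.46, interval −2.79 to −0.63, limma adjusted p = 0.0400). This was the largest adjusted p of the 6 calls. The call ended without wild type 1 (0.0941), wild type 3 (0.104), homozygote 1 (0.0765), homozygote 3 (0.122), heterozygotes 1, 2 or 3 (0.0521, 0.0680 and 0.0603), and with no filter on low values (0.0508).

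Hsp67Bc is known in the fly as a partner of the BAG-domain protein starvin in chaperone-assisted autophagy. It was at 34.9, 14.1 and 29.4 FPKM in wild types 1 to 3, at 8.76, 13.8 and 11.8 in heterozygotes 1 to 3, and at 3.24, 9.89 and 5.41 in homozygotes 1 to 3. The heterozygotes also lay below all wild types here, and homozygote 2 was above heterozygote 1. With means of 26.1 ± 10.8 and 6.18 ± 3.39 FPKM in wild type and homozygote (n = 3 each), the change was −1.93 (SE 0.42, interval −2.90 to −0.97, limma adjusted p = 0.0196), the smallest adjusted p of the family. Leaving out wild type 1, wild type 3 or homozygote 3 ended this call (adjusted p = 0.0624, 0.0734 and 0.0664).

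Hsp67Ba is a further alpha-crystallin protein of the cluster. Its levels were 31.9, 19.5 and 30.4 FPKM in wild types 1 to 3, 19.4, 25.5 and 23.8 in heterozygotes 1 to 3, and 3.54, 15.0 and 9.04 in homozygotes 1 to 3. Heterozygotes 2 and 3 lay within the wild type range, and all 3 heterozygotes were above all 3 homozygotes, whereas in Hsp23, Hsp27, Hsp26 and Hsp67Bc homozygote 2 was above heterozygote 1. The mean fell from 27.3 ± 6.78 to 9.18 ± 5.71 FPKM (n = 3 each) between wild type and homozygote, a log2 fold change of −1.62 (SE 0.42, interval −2.60 to −0.64, limma adjusted p = 0.0361). With wild type 1, wild type 3, homozygote 3 or heterozygote 1, 2 or 3 left out, the adjusted p was 0.0974, 0.0972, 0.0890, 0.0504, 0.0618 and 0.0598. The deposited Hsp67Ba locus spans positions 9377802 to 9381119 and so covers the antisense gene CR43481, itself at 0.109 to 0.945 FPKM, and whether counting used strand is not given in the sources used here.

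The Hsp22/Hsp67Bb locus was the member that did not pass. Hsp22 protein works in the mitochondrial matrix. The shared locus was at 116.2, 55.4 and 39.2 FPKM in wild types 1 to 3, at 40.2, 37.6 and 32.6 in heterozygotes 1 to 3, and at 34.0, 29.1 and 33.7 in homozygotes 1 to 3. Wild type 1 stood above the rest, the other 8 libraries lay between 29.1 and 55.4, and wild type 3 overlapped the heterozygotes. Means were 70.3 ± 40.6, 36.8 ± 3.87 and 32.3 ± 2.73 FPKM (n = 3 each), and the homozygote change was −0.95 (SE 0.34, interval −1.74 to −0.16, limma adjusted p = 0.0759). Without wild type 1, its highest library, the change was −0.52 (adjusted p = 0.0971), and without wild type 3 it was −1.29 (adjusted p = 0.0481).

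The member outside the cluster, l(2)efl, encodes an alpha-crystallin protein needed for viability, close in sequence to mammalian alpha-B crystallin. It was at 1003, 1717 and 1205 FPKM in wild types 1 to 3, at 1134, 1227 and 1150 in heterozygotes 1 to 3, and at 459.8, 460.9 and 903.3 in homozygotes 1 to 3. Here wild type 2, the lowest wild type for Hsp23, Hsp27, Hsp26, Hsp67Ba and Hsp67Bc, was the highest library, and homozygote 3 was the highest homozygote. The heterozygotes fell inside the wild type range and above all homozygotes. The mean fell from 1308 ± 368 to 608 ± 255.7 FPKM (n = 3 each), a log2 fold change of −1.14 (SE 0.30, interval −1.84 to −0.45, limma adjusted p = 0.0364). Of the 9 fits that left out 1 library, only that without homozygote 3 kept the call (adjusted p = 0.0139). Without wild types 1, 2 or 3 the adjusted p was 0.0517, 0.0589 and 0.0884, without heterozygotes 1, 2 or 3 it was 0.0526, 0.0633 and 0.0613, and without homozygotes 1 or 2 it was 0.0738 and 0.0665.

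Over the family, the number of loci called lower in the homozygote was 6 with all libraries, 0 without wild type 1, 1 without wild type 3 and 1 without homozygote 3. Without wild type 3 it was Hsp22/Hsp67Bb, so none of the 6 calls was kept, and without homozygote 3 it was l(2)efl. Of all loci, 2396 were called in either direction with all libraries, and 1035, 726 and 907 in these fits. The number of members was 5, 4 and 5 without wild type 2, homozygote 1 and homozygote 2 (3088, 2142 and 2610 of all loci). It was 3, 2 and 2 without heterozygotes 1, 2 and 3 (1838, 1249 and 1332 of all loci). A fit of only the 6 libraries of wild type and homozygote called 0 of the 7 loci (limma adjusted p = 0.0663 to 0.155) and 723 of all loci. The log2 fold change of each of the 7 loci was below 0 in each of 19 other settings. It ran from −3.68 to −2.46 for Hsp23 and from −1.55 to −0.93 for l(2)efl. Since wild type and homozygote libraries did not overlap at any of these loci, leaving out a library could not have reversed a direction. Nor could the pseudocount, filter, trend or choice of genotypes, so the constant sign is no separate check.

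**Figure D2:**
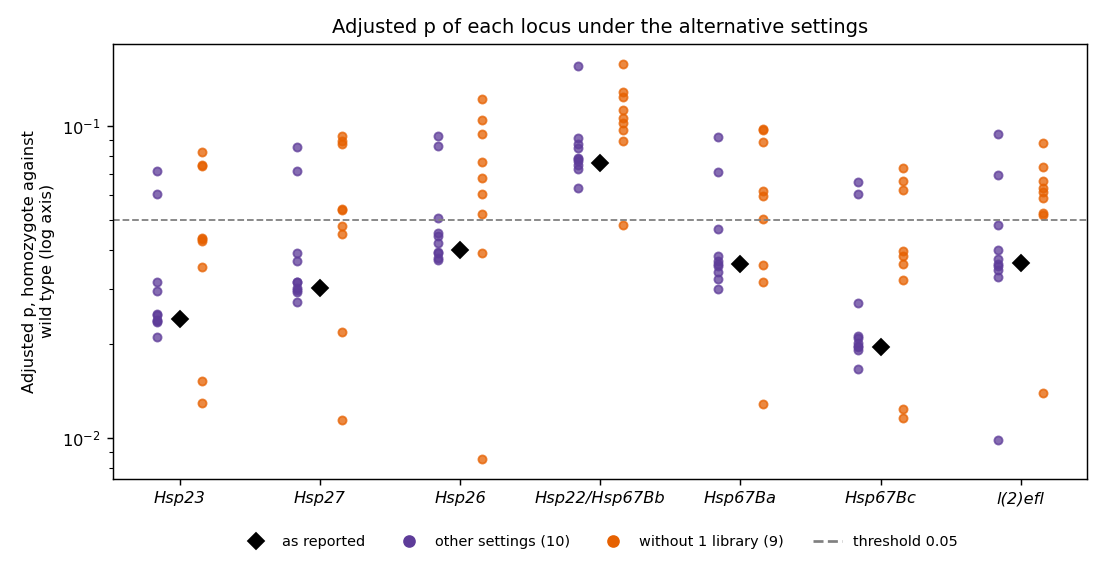
Adjusted p (log axis) of each small heat shock locus for homozygote against wild type, as reported (diamonds), under 10 other settings and without each of the 9 libraries. The dashed line is the threshold of 0.05; Hsp23 ran up to 0.0822 and Hsp26 up to 0.122.

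What 1 mutant copy of Atg6 does was asked with heterozygote against wild type. All 7 loci had a log2 fold change below 0, with a median of −0.77 beside 0.00 for all loci, but limma called 0 of 7, and 1 of 7 was under an unadjusted p of 0.05, as were 5.71% of all loci. Of all loci, 0.211% were called in this comparison. The locus with the unadjusted p was Hsp67Bc, at −1.05 (SE 0.42, interval −2.02 to −0.09, unadjusted p = 0.0359, limma adjusted p = 0.802), and it was also the one whose heterozygotes all lay below all wild types, as did those of 6.18% of all loci. For Hsp23 the change was −1.44 with an interval from −3.06 to 0.17, for Hsp26 −0.94 (−2.02 to 0.13) for Hsp22/Hsp67Bb −0.77 (−1.56 to 0.02) and for Hsp27 −0.76 (−1.87 to 0.35). The values for Hsp67Ba (−0.22, interval −1.19 to 0.76) and l(2)efl (−0.12, interval −0.82 to 0.57) were nearer to 0. For 6 of the 7 loci the interval reached more than 1 log2 unit below 0, so the size of any heterozygote change is bounded only loosely by 3 libraries a genotype.

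Homozygotes were also set against heterozygotes. The log2 fold changes were again all below 0, with a median of −1.02 beside −0.02 for all loci. Limma called 0 of 7, where 7.70% of all loci were called and 1.42% were called lower, and 4 of 7 were under an unadjusted p of 0.05, as were 26.2% of all loci. Those 4 were l(2)efl (−1.02, SE 0.30, limma adjusted p = 0.0868), Hsp67Ba (−1.40, SE 0.42, adjusted p = 0.0929), Hsp27 (−1.20, SE 0.48, adjusted p = 0.170) and Hsp23 (−1.63, SE 0.70, adjusted p = 0.189). The libraries of l(2)efl and of Hsp67Ba did not overlap between these genotypes, and 15.6% of all loci were separated downwards in that way. Hsp22/Hsp67Bb differed least, at −0.18 (interval −0.97 to 0.61). A limma F test of any difference among the 3 genotypes called 0 of 7 (10.6% of all loci), with 6 of 7 under an unadjusted p of 0.05 (32.6% of all loci) and adjusted p from 0.0513 for Hsp67Bc to 0.157 for Hsp22/Hsp67Bb.

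**Figure D3:**
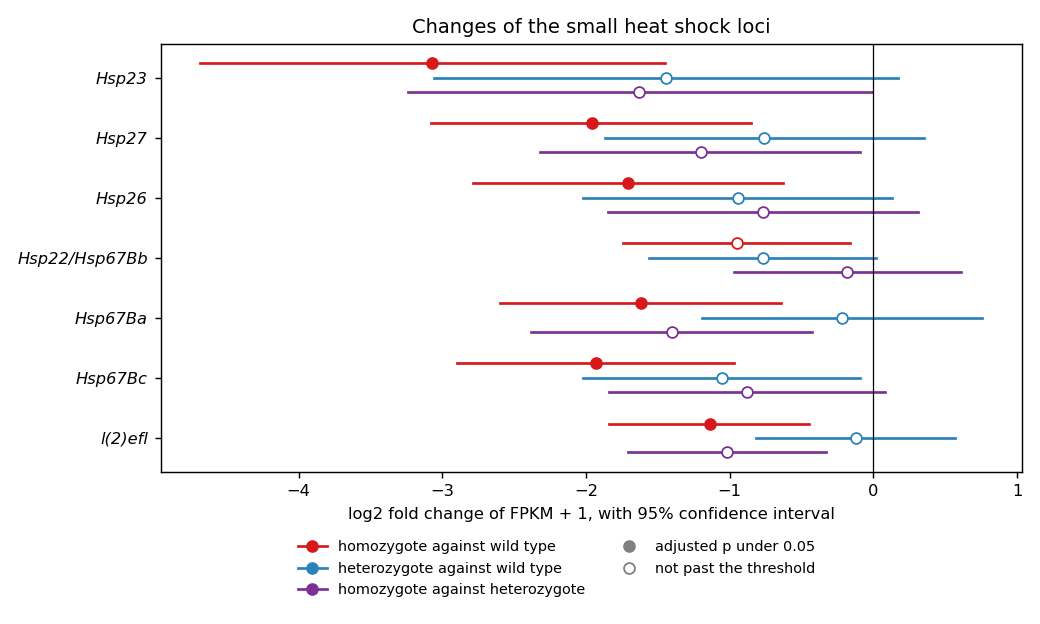
Log2 fold change of FPKM + 1 with its 95% confidence interval for each small heat shock locus in the 3 comparisons of genotypes; filled points passed an adjusted p of 0.05. All 21 points lie below 0, and the 6 filled ones are all homozygote against wild type, from −3.07 (Hsp23) to −1.14 (l(2)efl).

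The order of the genes by level, per length, was the same in each genotype: l(2)efl was highest, then Hsp23, Hsp27, Hsp26, Hsp22/Hsp67Bb, Hsp67Ba and Hsp67Bc. Among wild type libraries each neighbouring pair in this order had overlapping libraries except Hsp22/Hsp67Bb and Hsp67Ba. In the heterozygote only Hsp23 and Hsp27 overlapped. In the homozygote l(2)efl was clear of Hsp23 and Hsp22/Hsp67Bb clear of Hsp67Ba, and the other neighbours overlapped. The share of the family sum held by l(2)efl was 33.0, 70.5 and 38.5% in wild types 1 to 3, then 70.5, 61.9 and 61.4% in heterozygotes 1 to 3, and 74.2, 48.0 and 77.7% in homozygotes 1 to 3. It was lowest in wild types 1 and 3 and in homozygote 2, the libraries richest in 67B RNA within those genotypes. Within the 67B sum, Hsp23 made up 57.7, 50.3 and 65.2% in wild types 1 to 3, and its share in homozygotes 1 to 3, which was 25.2, 45.0 and 36.9%, did not overlap with these.

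The 7 genes at 67B occupy 14.2 kb of chromosome 3L (positions 9371511 to 9385694, build dm6, annotation BDGP6), and 5 of them, Hsp23, Hsp26, Hsp27, Hsp67Ba and Hsp67Bc, have a single annotated exon. In order they are Hsp67Bc (9371511 to 9372497, minus strand), Hsp67Bb (9372722 to 9374964, plus), Hsp22 (9372931 to 9374964, plus, within the span of Hsp67Bb), Hsp26 (9376418 to 9377427, minus), Hsp67Ba (9377802 to 9379534, minus), Hsp23 (9381882 to 9382765, plus) and Hsp27 (9384063 to 9385694, plus). The current symbol of Hsp67Bb is CG4456. The gene l(2)efl has 3 exons at positions 23684651 to 23685543 of chromosome 2R, on the minus strand.

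None of the tested neighbours of the cluster passed as lower. Of 14 other genes within 20 kb, 11 were tested, 0 were called lower by limma and 1 was called higher. Over all loci 9.67% were called lower and 12.3% higher. Pdxk, a pyridoxal kinase, was the one that rose, with means of 38.8 ± 7.65 FPKM in wild type and 65.0 ± 15.2 in homozygote (0.72, SE 0.20, limma adjusted p = 0.0417). The genes next to the cluster were at −0.02 (Fdxh, now Fdx1, adjusted p = 0.946) and −0.23 (CG4452, 0.274) on the side of Hsp67Bc, and at −0.39 (CG4080, 0.220) and −0.10 (eIF-4E, 0.480) on the side of Hsp27. CG4461, an alpha-crystallin gene that lies between Hsp22 and Hsp26, was nearly silent, at 0 to 0.258 FPKM in the 9 libraries, and was not tested.

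**Figure D4:**
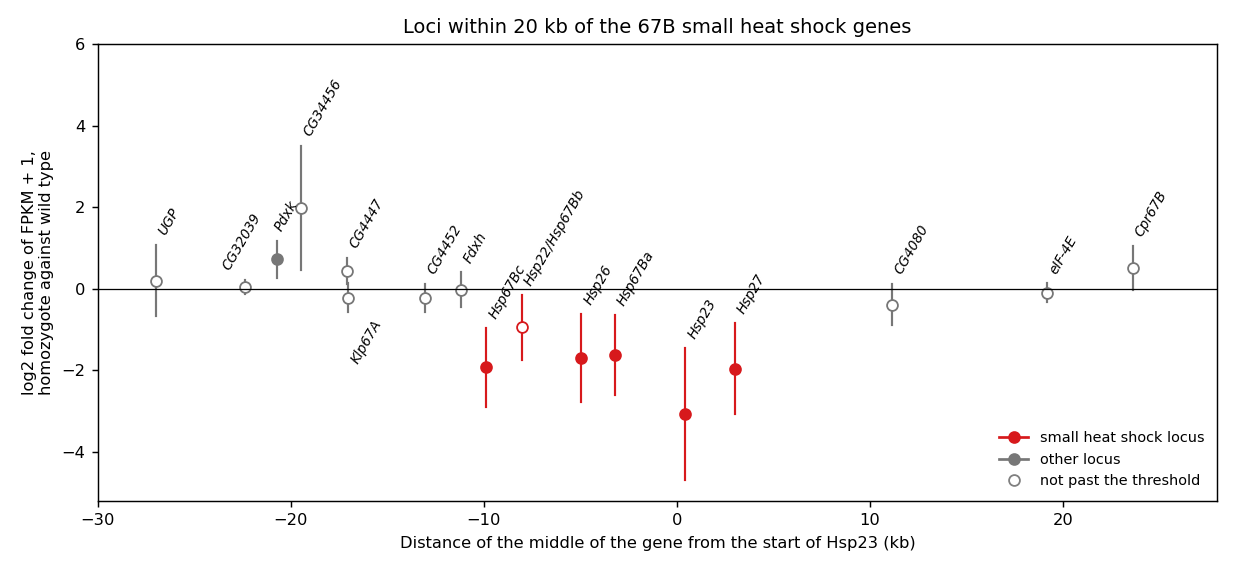
Log2 fold change of FPKM + 1, homozygote against wild type, with its 95% confidence interval, for tested loci within 20 kb of the 67B cluster, by distance in kb of the middle of the gene from the start of Hsp23. Small heat shock loci (red) lie between −3.07 and −0.95, and their tested neighbours (grey) between −0.39 and 1.97, the last being CG34456 (adjusted p = 0.0637).

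The libraries of 1 genotype differed more in these genes than in most. The residual SD of log2(FPKM + 1) was 0.97 for Hsp23, larger than that of 97.4% of tested loci, 0.66 for Hsp27, 0.64 for Hsp26, 0.58 for Hsp67Ba and Hsp67Bc, 0.47 for Hsp22/Hsp67Bb and 0.40 for l(2)efl, beside a median of 0.20 over all loci. The spread had a common order. In Hsp23, Hsp27, Hsp26, Hsp67Ba and Hsp67Bc wild type 2 was the lowest wild type, heterozygote 1 the lowest heterozygote and homozygote 2 the highest homozygote. Wild type 2 lowest together with homozygote 2 highest was found in 23.4% of all tested loci.

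Over the 9 libraries, described without a test since genotype itself is shared by the points, log2(FPKM + 1) of Hsp23 had a Pearson r of 0.992 with Hsp27 and with Hsp67Bc, 0.935 with Hsp67Ba and 0.92 with Hsp26. Hsp22/Hsp67Bb was less like the rest of the cluster, with r from 0.441 (Hsp67Ba) to 0.706 (Hsp26). For l(2)efl, r with the other members ran from 0.36 (Hsp22/Hsp67Bb) to 0.68 (Hsp67Ba). Among 7997 other loci with a mean of at least 5 FPKM, the pair most like Hsp23 was wbl, an endoplasmic reticulum protein, and Spn43Aa, a serpin, both at 0.993, and the same pair was most like Hsp27 (0.997 and 0.993). Those of Hsp67Bc were Hsp23 (0.992) and Spn43Aa (0.986), and those of Hsp67Ba were LBR, the lamin B receptor, and Sema-2b, a semaphorin (both 0.991). Hsp26 was most like CG30056/fra (0.978) and slmb (0.965), and l(2)efl was most like CG11912 (0.975) and Cpr51A, a cuticle protein (0.969). The locus of Hsp22 and Hsp67Bb was most like Drsl5, a drosomycin-like peptide gene, with r of 0.968, and CG11070, with r of 0.934. Drsl5 was at 48.5 FPKM in wild type 1 and at 0.609 to 3.64 in the other 8 libraries, and wild type 1 was the highest library in both.

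Genes of the ecdysone response were set beside the members, because hormone and heat both drive the cluster in larvae. Of 25 tested loci of that list 1 rose and 3 fell in the homozygote, with a median log2 fold change of −0.38. Among all tested loci 12.3% rose and 9.67% fell. The ecdysone-induced ImpE3 fell from 16.9 ± 7.14 to 2.48 ± 1.38 FPKM (n = 3 each, −2.37, SE 0.36, limma adjusted p = 0.00554) and ImpE2 from 102.2 ± 63.7 to 13.4 ± 19.3 (−3.65, SE 1.08, adjusted p = 0.0472), while ImpL1 rose from 0.616 ± 0.288 to 1.99 ± 0.365 (0.90, adjusted p = 0.0163). The third that fell was Fbp1. In heterozygote against wild type limma called 0 of these 25, where 0.211% of all loci were called.

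Receptor and early genes of the response did not pass the threshold. The receptor subunit EcR was at −0.60 (limma adjusted p = 0.201), and the locus Actn/usp of the same list was at 0.56 (0.314). That locus joins usp with Actn in 1 common value, so the level of usp alone is not known. Early transcription factors were at −1.23 for br (0.0951), −0.79 for Eip74EF (0.0595) and −0.70 for Eip75B (0.126). Values of the other regulators were −0.36 for Hr39 (0.0798) and 0.06 for ftz-f1 (0.807), and ImpE1 was at −1.47 (0.0508). The early gene br was at 155.7, 88.97 and 164.5 FPKM in wild types 1 to 3, at 99.3, 100.8 and 81.0 in heterozygotes 1 to 3, and at 29.3, 122.2 and 48.0 in homozygotes 1 to 3. Its homozygote 2 thus lay above wild type 2, while among the small heat shock loci no homozygote did. ImpE2 was at 155.4, 31.7 and 119.5 FPKM in wild types 1 to 3, at 25.4, 55.4 and 39.2 in heterozygotes 1 to 3, and at 0.720, 35.6 and 3.93 in homozygotes 1 to 3. As in Hsp23, wild type 2 and heterozygote 1 were lowest and homozygote 2 highest within their genotypes, but here homozygote 2 was above wild type 2. Wild type 2 lowest with homozygote 2 highest was the order in 12 of 25 ecdysone response loci (48.0%), beside 23.4% of all tested loci. The share was 40.0% for ecdysone synthesis, 14.3% for salivary glue, 8.33% for large chaperones and 0.00% for muscle loci. Genes of ecdysone synthesis fell in 4 of 10 loci and rose in 0 (median −0.63), among them dib (−1.16, adjusted p = 0.00469) and phm (−1.29, adjusted p = 0.00887), cytochrome P450 enzymes of the pathway. Over all loci 9.67% fell and 12.3% rose. The part of hormone state in the lower small heat shock RNA was not tested.

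**Figure D5:**
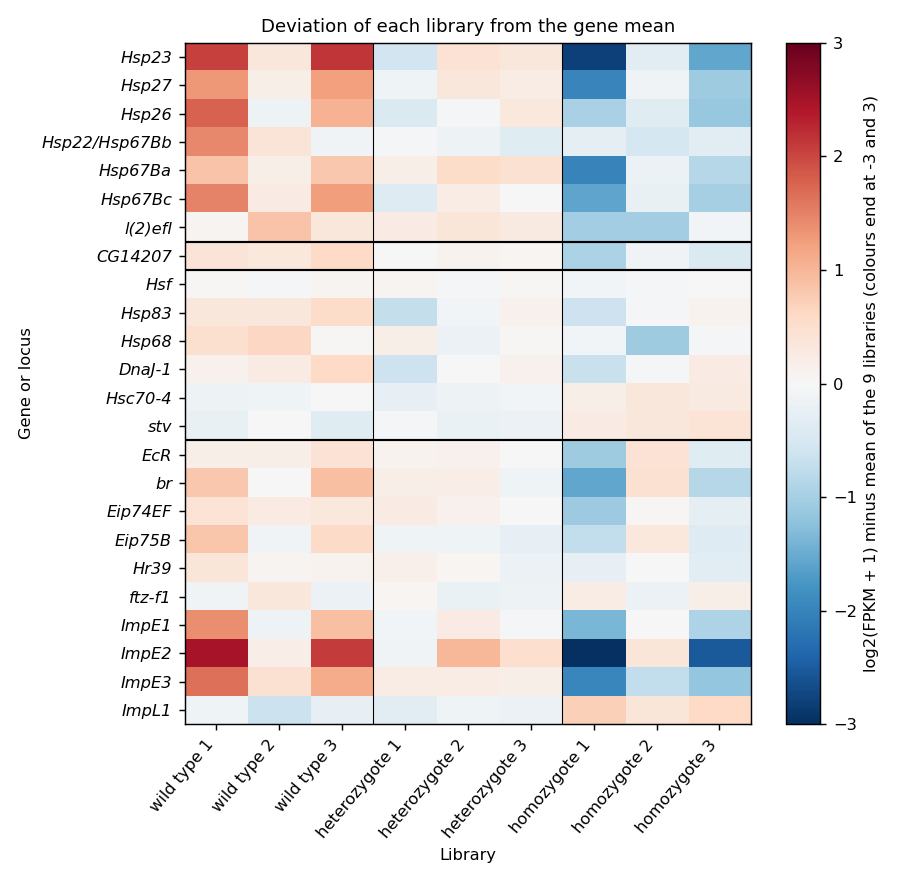
Log2(FPKM + 1) of each library minus the mean of the 9 libraries, for the small heat shock loci and CG14207 (top), heat shock factor and large chaperones (middle) and ecdysone response genes (bottom); colours end at −3 and 3. Wild types 1 and 3 are high and homozygotes 1 and 3 low in Hsp23, Hsp27, br, ImpE1 and ImpE2, and heat shock factor (Hsf) is near 0 throughout.

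Heat shock factor and the large chaperones were set beside the members as the heat side of the system. Heat shock factor (Hsf) had a mean of 19.2 ± 0.919 FPKM in wild types and of 18.2 ± 0.547 in homozygotes (n = 3 each, −0.08, SE 0.07, limma adjusted p = 0.442). The heat-inducible Hsp70 loci were at 0 to 0.506 FPKM in all 9 libraries. Of 24 large chaperone loci tested, 3 rose and 3 fell, with a median of −0.19, where 12.3% of all loci rose and 9.67% fell. The other heat-responsive chaperones were at −0.60 for Hsp83, the fly Hsp90 (adjusted p = 0.120), −0.77 for Hsp68 (0.0839) and −0.49 for DnaJ-1, an Hsp40 (0.223), and the constitutive Hsc70-4 was at 0.35 (0.0652). All homozygotes lay below all wild types for Hsp83 (165.2 to 274.3 against 323.6 to 378.8 FPKM) and Hsp68 (10.7 to 23.3 against 24.4 to 37.1). DnaJ-1 overlapped. Of all loci 20.5% were separated downwards in this way. The chaperones that fell were of the Hsp60 group, Hsp60D (−1.14, adjusted p = 0.0412) and Hsp60B (−1.86, adjusted p = 0.0449) among them. Hsp60B was at 28.5, 6.62 and 9.08 FPKM in wild types 1 to 3. Wild type 1 was the highest library for it and for Hsp60D, as it was for the summed testis markers. The part of testis RNA in these falls was not tested. Those that rose included starvin (stv) and the Hsp40 mrj (0.32, adjusted p = 0.0377).

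Of 6 other genes listed for an alpha-crystallin domain, 5 were found by name and 3 were tested. Of the tested loci 1 fell and 0 rose, with a median of −0.93, where 9.67% of all loci fell and 12.3% rose. The one that fell, CG14207, is the fly relative of mammalian HspB8. It was at 575.9, 556.4 and 670.9 FPKM in wild types 1 to 3, at 449.0, 475.8 and 464.4 in heterozygotes 1 to 3, and at 230.9, 411.2 and 328.3 in homozygotes 1 to 3, and none of the 3 genotypes overlapped. Of all tested loci, 20.5% had all homozygotes below all wild types. For heterozygotes below wild types the share was 6.18%, and for homozygotes below heterozygotes 15.6%. The share with all 3 separations was not computed. The homozygote change was −0.93 (SE 0.20, limma adjusted p = 0.0200). CG43851 was at −1.12 (adjusted p = 0.0660) with a wild type mean of 2.82 FPKM, CG7409 was at −0.09 (0.743), and CG13133 and CG4461 were below 1 FPKM.

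Among the partners of Hsp67Bc and CG14207 in chaperone-assisted autophagy, starvin, the fly BAG3, rose in the homozygote, with means of 30.3 ± 4.14 and 43.8 ± 2.61 FPKM (0.52, SE 0.11, limma adjusted p = 0.0181). The fly p62, ref(2)P, a receptor for autophagic cargo, was at 146.9, 124.1 and 128.8 FPKM in wild types 1 to 3 and at 210.6, 271.0 and 230.7 in homozygotes 1 to 3, and rose by 0.82 (SE 0.12, adjusted p = 0.00398). Of the 6 genes in this list, CG14207 included, 2 rose and 1 fell, with a median of 0.30. Over all loci 12.3% rose and 9.67% fell, shares that stand beside the lists that follow as well. Of the known targets of FOXO, a list that l(2)efl belongs to, 8 other loci were tested. In that list puc, a phosphatase, rose (0.94, adjusted p = 0.00503), Sesn, the fly sestrin, fell (−0.85, adjusted p = 0.0106), and the median was 0.07. In the mitochondrial stress list, set beside Hsp22, 1 of 7 rose, the kinase Pink1 (0.45, adjusted p = 0.0259), and 0 fell, with a median of 0.08.

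Markers of some tissues moved between the same libraries. Other tissue lists are given by count only. In the homozygote 1 of 17 midgut loci rose and 1 fell, and 0 of 9 nervous system loci passed. Of 12 imaginal disc loci 1 fell and 0 rose, and of 7 female germline loci 1 fell and 0 rose. The counts of all these lists stand beside 12.3% of all loci called higher and 9.67% called lower in the homozygote. Of 22 muscle loci tested, 0 passed in the homozygote (limma), with a median of 0.74. Their summed FPKM was 9964, 24240 and 11910 in wild types 1 to 3, 27740, 18620 and 18220 in heterozygotes 1 to 3, and 35910, 13520 and 30030 in homozygotes 1 to 3. These sums were thus highest where the sum of the 67B loci was lowest within a genotype: wild type 2, heterozygote 1 and homozygote 1. Hsp22/Hsp67Bb differed, with its lowest levels in wild type 3, heterozygote 3 and homozygote 2. For Hsp26 the lowest homozygote was homozygote 3. Of 7 salivary glue loci 2 fell (CG7587, −4.50, adjusted p = 0.00974, and Sgs8, −2.52, adjusted p = 0.0441), and their sum ran from 53620 to 78120 FPKM in wild types, from 51850 to 59460 in heterozygotes and from 4032 to 27400 in homozygotes. Of 5 fat body storage loci 1 fell, Fbp1 (−4.44, adjusted p = 0.0496), and Lsp1beta was listed at 0 in heterozygote 3 and homozygote 1. Of 27 testis loci 13 fell (nht, −1.19, adjusted p = 0.0163, and sa, −1.45, adjusted p = 0.0183, for example), with sums from 217.4 to 666.5 FPKM in wild types and from 92.2 to 178.7 in homozygotes. Wild type 1 was the highest library both for that sum and for Hsp22/Hsp67Bb. Blood cell markers were higher in the homozygote. Of 11 lamellocyte loci, markers of a blood cell that encapsulates foreign bodies, 8 rose and 0 fell, with a median of 1.13. Their summed FPKM was 591.6 to 599.1 in wild types, 526.3 to 593.0 in heterozygotes and 1339 to 1512 in homozygotes, and none was at 0 in any library. The integrin subunits mys and ItgalphaPS4 went from means of 56.9 ± 3.87 to 172.9 ± 19.1 FPKM (1.58, SE 0.11, limma adjusted p = 0.000168) and from 1.95 ± 1.47 to 117.9 ± 12.5 FPKM (5.48, SE 0.39, adjusted p = 0.000183; n = 3 each). Of 11 loci of plasmatocytes, the phagocytic blood cells, 5 rose and 1 fell (CR45660/Pxn, −0.82, adjusted p = 0.0334), with a median of 0.54, sums of 365.5 to 479.4 FPKM in wild types, 376.2 to 437.1 in heterozygotes and 749.7 to 941.5 in homozygotes, and none at 0 in any library. Those that rose include He (1.93, adjusted p = 0.000574) and the scavenger receptor Sr-CI (2.28, adjusted p = 0.00125). The part of muscle, glue, fat body, testis or blood cell RNA in the results on the small heat shock genes was not tested.

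Of the calls named here besides the members, those of Atg6, ImpE3, dib, phm, ref(2)P, puc, Sesn, CG7587, mys, ItgalphaPS4, He and Sr-CI held in limma without each of the 9 libraries. The calls of CG14207, stv, nht and sa ended without wild type 1, wild type 3 or homozygote 3, with an adjusted p of up to 0.0765, 0.0705, 0.0650 and 0.0657. These are the libraries whose omission also ended those of Hsp23 and Hsp67Bc. That of Pink1 ended without these or heterozygote 2 (up to 0.0923), and that of ImpL1 without wild type 3 (0.0540), while without a homozygote ImpL1 missed the filter. Fbp1 and Sgs8 lost theirs without any 1 wild type or heterozygote (up to 0.117 and 0.115). Among the fits without 1 library, the calls of ImpE2 and Pdxk held only without wild type 2 or homozygote 2 (otherwise up to 0.134 and 0.127), that of Hsp60D only without wild type 2 or heterozygote 1 (up to 0.121), that of Hsp60B only without wild type 2 or homozygote 1 (up to 0.129), and that of mrj only without homozygote 2 (up to 0.112). For Pxn the call held only in the fits that left out heterozygote 1, heterozygote 3 or homozygote 2 (up to 0.0955 in the rest). Of the 26 calls, quantile normalization ended 9, those of dib (adjusted p = 0.0678), ref(2)P (0.116), Pink1 (0.178), mrj (0.265), Hsp60D (0.0839), Hsp60B (0.0554), CG14207 (0.0532), Fbp1 (0.0522) and Sgs8 (at the threshold of 0.05 once rounded). The fit of 2 genotypes ended 14 (adjusted p from 0.0524 for Sesn to 0.114 for Fbp1), and those it kept were Atg6, ImpE3, dib, phm, ref(2)P, puc, CG7587, nht, mys, ItgalphaPS4, He and Sr-CI. With no filter on low values 6 ended (ImpE2, Fbp1, Hsp60D, Hsp60B, Sgs8 and Pdxk), with a pseudocount of 5 those of Fbp1, Hsp60D and Hsp60B, and without a trend that of Fbp1. No direction among these 26 genes changed in any setting in which the gene was tested.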

How the data were processed

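The labels' protocols state total RNA from a Qiagen RNeasy kit and strand-specific Illumina libraries. Values are FPKM as deposited, per locus and library. Per the submitters' processing notes, HISAT2 2.1.0, Cufflinks 2.2.1 and limma were used with build dm6, while for the annotation and the strand setting the sources used here give nothing. Of 50244 lines, 1 was kept for each of 15809 loci, and 818 loci carry several names. A locus was tested (10887 were) where FPKM reached 1 in 3 libraries or more. The scale was log2(FPKM + 1), whose pseudocount of 1 makes changes of weak genes come out too small. All 9 libraries entered 1 fit in limma 3.58.1 (R 4.3.3; lmFit, contrasts.fit, eBayes with trend). P-values were adjusted by Benjamini-Hochberg over the tested loci, with a threshold of 0.05.

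The members and the gene lists were chosen with earlier results of these data known. Genes named were the members, Atg6, loci within 20 kb of the cluster, the 2 loci most like each member and the other listed alpha-crystallin genes found by name. A set of hormone and chaperone genes was named too, and per list not given by count only, up to 2 genes per direction with the smallest adjusted p. Fbp1, as an ecdysone response gene, was named after its values were seen. Positions came from Ensembl release 115. The steps were tested on simulated data for homozygote against wild type, in which 200 of 10887 loci changed: 63% of 2-fold and 84% of 4-fold changes were recovered, and 5.16% of calls were false. The 200 were drawn from loci at about 5 FPKM or more in the wild type. Spread was simulated independently for each locus and library. In the real libraries loci deviate together and more loci were called, so these rates need not hold for the real calls. Figures were drawn with matplotlib 3.10.9 (Python 3.11.15). Alternatives tried were scaling by median of ratios or by quantiles, pseudocounts of 0.1 and 5, a filter at 5 FPKM or none, eBayes without trend, 2 genotypes per fit, a block for the replicate number, every line as deposited, and leaving out each library.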

Additional observations from a re-analysis of the deposited data

How the results depend on the processing

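In homozygote against wild type, 2396 loci and 6 small heat shock loci were called. Fitting only 2 genotypes gave 723 loci and 0 members, and leaving out 1 library gave 726 to 3088 loci and 0 to 5 members. Every line as deposited, in which loci repeat, gave 7968. In heterozygote against wild type 23 loci were called, with 8 for 2 genotypes, 60 for every line and 9 to 27 without 1 library; the member count was 0 in each. In homozygote against heterozygote 838 loci were called, with 549 for 2 genotypes, 2736 for every line and 303 to 815 without 1 library, and 0 members, or 0 to 1 without 1 library. The F test called 1158 loci, 3843 with every line and 490 to 1267 without 1 library, and 0 members, 1 with a filter at 5 FPKM, 1 with quantile normalization and 0 to 4 without 1 library. The change of l(2)efl in the heterozygote was −0.12, ran from −0.30 to 0.09 without 1 library, and was above 0 without wild type 2. The cause of these shifts was not tested, other than that fewer libraries enter the smaller fits.

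The replicate numbers did not pair the libraries: the correlation of deviations between libraries of the same number ran from −0.647 to 0.331. With the replicate number as a block, 966, 9 and 437 loci were called in the 3 comparisons and 502 by the F test, with 0 members in each (adjusted p of the members for homozygote against wild type 0.0603 to 0.0876). The block also ended 9 of the 26 other calls named for homozygote against wild type. FPKM give no absolute depth, and the lowest value of a member was 3.24 FPKM (Hsp67Bc in homozygote 1).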
